A study of Mus musculus with 30 samples.

Results

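The 10 genes described here encode the machinery of lytic cell death: Zbp1, Ripk1, Ripk3, Mlkl and Casp8 on the necroptosis side, and Pycard, Casp1, Casp4, Casp12 and Gsdmd on the pyroptosis and inflammatory caspase side. They were listed by name, with earlier results of these data known, and matched by gene symbol among 49315 genes counted by bulk RNA sequencing. All 10 had the minimum of 10 reads over the 24 libraries that 21138 genes reached. Expression was measured in B16F10 cells, a mouse melanoma line, and in 6694c2 cells (C2 in the labels), a pancreatic ductal adenocarcinoma line from genetically engineered mice that carried Pdx-cre, both of C57BL/6 genotype. The 8 groups, each of 3 libraries, were cells of either line left with vehicle or cultured for 24 h with 100 ng/mL of IFNγ, 1000 U/mL of IFNβ, or 225 μg/mL of STING agonist. Within a line the labels name no other allele or agent, each tumour type is represented by 1 line, and cell death was not measured in these libraries. In bulk RNA, fewer expressing cells and less RNA per cell cannot be told apart. The labels do not say whether the 3 libraries of a group came from separate cultures, so p-values measure the spread between libraries, which may be technical.

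In necroptosis, ZBP1 senses Z-form nucleic acid and recruits the kinase RIPK3, which is also engaged by RIPK1 below death receptors, and RIPK3 phosphorylates MLKL, the protein that breaches the plasma membrane. CASP8 holds this pathway in check and can itself start apoptosis. In pyroptosis, the adaptor ASC, encoded by Pycard, links inflammasome sensors to CASP1, while CASP4 (also known as mouse caspase-11) binds bacterial lipopolysaccharide directly, and either caspase cuts GSDMD, whose freed end forms pores. Interferons are well known to raise several of these genes in many cell types.

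The libraries held 15543131 to 32266795 reads on genes. Levels are given as CPM, the count of a gene relative to all counts of its library on a per-million scale, adjusted by TMM over the 24 libraries. The sums of cell type markers use CPM without this adjustment. Differences were tested with edgeR (quasi-likelihood), p-values were adjusted by Benjamini-Hochberg over all 21138 genes, and a gene was called at an adjusted p under 0.05. The 7 melanocyte markers summed to 15978 to 19985 CPM in B16F10 libraries and 17.4 to 120.4 CPM in 6694c2 libraries, and the 6 epithelial markers to 11990 to 13976 CPM in 6694c2 and 14.4 to 145.7 CPM in B16F10 libraries, so each line carried its own markers. The 6 leukocyte markers summed to 6.196 to 9.52 CPM in B16F10 and 1.98 to 3.43 CPM in 6694c2, where 5 of the 6 had a read. Transcripts specific to 6694c2 (190 genes) stood in B16F10 libraries at a median of 0.228% of their 6694c2 level with vehicle, 0.331% with IFNγ, 0.428% with IFNβ and 1.03% with STING agonist. Transcripts specific to B16F10 (145 genes) stood at 0.248% to 0.577% in the group means of 6694c2. Both sets were picked from these same libraries, as genes with a mean of at least 50 CPM in one line and under 2% of it in the other. Their shares were therefore low by selection. They are set beside the values below and cannot show where the reads of a member came from. They use CPM without the TMM adjustment, and the level in the other line is the mean over all its 12 libraries. Shares of members given below use adjusted CPM and the other line under the same treatment. The 2 kinds of share are therefore not on the same scale.

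The interferons raised most of the 10 genes in both lines, and none was called lower than with vehicle. With IFNγ, 8 of the 10 were called higher in B16F10 cells, where 12% of all genes tested were called higher and 10.8% lower, and 9 were called higher in 6694c2 cells, where 7.89% were called higher and 5.66% lower. With IFNβ, 6 were called higher in B16F10 cells (12.7% of all genes higher, 11.2% lower) and 7 in 6694c2 cells (10.4% higher, 7.86% lower). The median log2 fold change of the 10 genes was 1.76 and 1.56 with IFNγ and IFNβ in B16F10 cells, and 1.71 and 1.82 in 6694c2 cells, against medians over all genes of 0 to 0.02. With STING agonist 2 of the 10 were called higher in B16F10 cells (1.93% of all genes higher, 1.53% lower) and 0 in 6694c2 cells (0.203% higher, 0.156% lower), with medians of 0.28 and 0.03. These medians include the fitted values of members with few reads. In none of these 6 comparisons was a member lower, either at an unadjusted p under 0.05 in edgeR (0 genes) or in DESeq2 (0 genes). The comparisons within a line share their vehicle libraries. Because the members were chosen with earlier results of these data known, the shares over all genes stand beside their counts as description only.

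**Figure D1:**
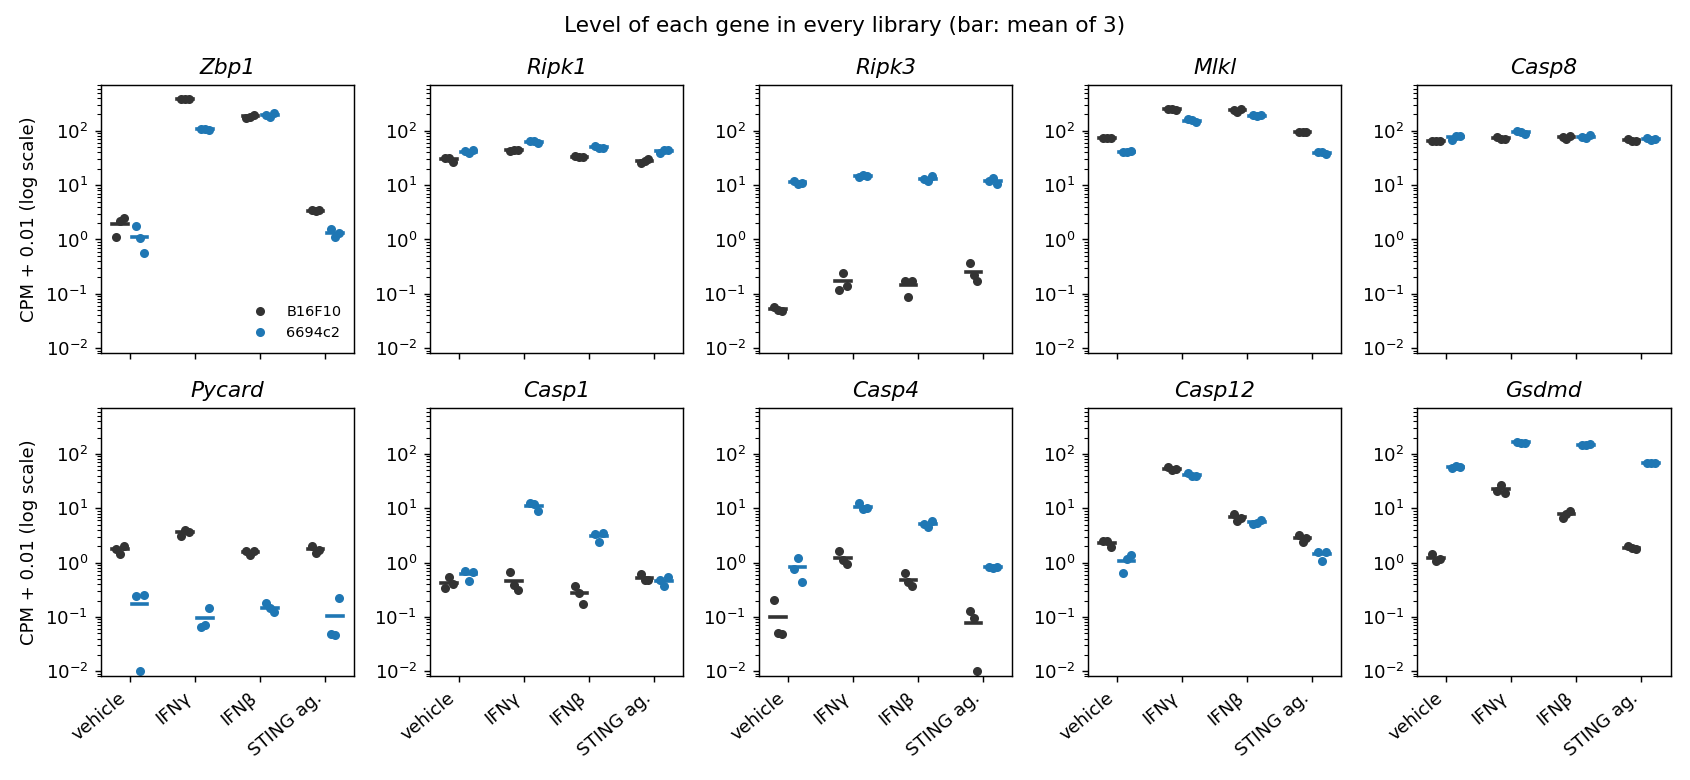
CPM plus 0.01 of each gene on a log scale in every library of B16F10 (dark) and 6694c2 (blue) cells by treatment, with a bar at the mean of 3 libraries. Zbp1 climbs from a few CPM to over 100 CPM with either interferon in both lines, while Ripk3 in B16F10 and Pycard in 6694c2 stay under 0.4 CPM in every library.

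Zbp1 (ENSMUSG00000027514, chromosome 2 of GRCm38 from 173206612 to 173218923, minus strand), the nucleic acid sensor, had the largest fitted fold change of the 10 under either interferon in either line. B16F10 libraries held 1.10, 2.21 and 2.46 CPM with vehicle, 386, 392 and 380.2 CPM with IFNγ, and 174, 182 and 196 CPM with IFNβ. 6694c2 libraries held 1.75, 1.06 and 0.549 CPM with vehicle, 110.4, 109.6 and 104 CPM with IFNγ, and 196, 177 and 214 CPM with IFNβ. Vehicle and interferon libraries did not overlap in either line, and the order of the 2 interferons was opposite in the 2 lines. In B16F10 cells the log2 fold change against vehicle was 7.61 with IFNγ (SE 0.0922, adjusted p = 3.13e-253, edgeR) and 6.55 with IFNβ (SE 0.093, adjusted p = 6.31e-227, edgeR). In 6694c2 cells it was 6.59 with IFNγ (SE 0.142, adjusted p = 6.52e-34, edgeR) and 7.47 with IFNβ (SE 0.14, adjusted p = 2.69e-36, edgeR).

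Compared directly, Zbp1 was lower with IFNβ than with IFNγ in B16F10 cells by a log2 fold change of -1.06 (SE 0.0567, adjusted p = 3.48e-54, edgeR) and higher in 6694c2 cells by 0.88 (SE 0.0822, adjusted p = 1.81e-11, edgeR). The test of the difference between these contrasts gave -1.93 on the log2 scale (SE 0.116, adjusted p = 1.65e-16, edgeR). Its values under the alternatives run lay between -1.99 and -1.86. Against vehicle, where the levels were low and spread, the differences between the lines were less firm. The IFNγ effect was larger in B16F10 cells by 1.04 (adjusted p = 0.0166, edgeR), a call that was lost when B16F10 vehicle replicate 1 was left out (0.73, adjusted p = 0.0864, edgeR) and when 6694c2 vehicle replicate 1 was left out (0.57, adjusted p = 0.399, edgeR). The IFNβ effect was smaller in B16F10 cells by a log2 difference of -0.89 (adjusted p = 0.0248, edgeR), which was lost without replicate 2 of B16F10 vehicle (-0.84, adjusted p = 0.0682, edgeR), replicate 3 of B16F10 vehicle (-0.73, adjusted p = 0.126, edgeR), replicate 2 of 6694c2 vehicle (-0.85, adjusted p = 0.0746, edgeR) or replicate 3 of 6694c2 vehicle (-0.58, adjusted p = 0.192, edgeR).

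RIPK1 and RIPK3 are the kinases that ZBP1 and the death receptors call on. Ripk1 (ENSMUSG00000021408, chromosome 13 from 34002363 to 34035170, plus strand) moved less than Zbp1 under every treatment. B16F10 libraries held 31.04, 31.7 and 26.99 CPM with vehicle and 41.8, 43.5 and 45.2 CPM with IFNγ, a log2 fold change of 0.54 (SE 0.0776, adjusted p = 3.64e-10, edgeR). 6694c2 libraries held 42.0, 38.8 and 44.0 CPM with vehicle and 63.9, 66.2 and 60.7 CPM with IFNγ, a log2 fold change of 0.63 (SE 0.078, adjusted p = 2.72e-08, edgeR). The groups did not overlap in either line. IFNβ gave 33.7, 33.2 and 32.7 CPM in B16F10 cells (log2 fold change 0.16, adjusted p = 0.138, edgeR) and 51.8, 47.9 and 48.9 CPM in 6694c2 cells (0.29, adjusted p = 0.00584, edgeR), and the 6694c2 call was lost without vehicle replicate 2 (0.24, adjusted p = 0.0583, edgeR). Ripk1 was lower with IFNβ than with IFNγ in both lines, with log2 values of -0.38 in B16F10 and -0.34 in 6694c2 cells (adjusted p = 2.32e-05 and 0.00098, edgeR). On the annotation, 241 exon bases of Ripk1 are shared with the antisense gene Serpinb6a, which held 263244 reads against 23010 for Ripk1 over the 24 libraries, and 2108 with the predicted gene Gm17084 (62 reads). Whether counting used strand is not stated, so a part of the Ripk1 count may belong to them.

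Promoter sequence was searched for the members because their responses to the interferons differed. RefSeq windows on GRCm38.p6, from 250 bases before to 50 after the annotated start, matched 8 of the 10 genes by symbol (10 windows), and Zbp1 and Gsdmd were not matched. The letters searched were TTCNNNGAA, the gamma-activated site (GAS) known from genes that answer to IFNγ, which reads the same on both strands, and the core of the interferon-stimulated response element (ISRE), GAAA and GAAA with any 2 bases between them, on either strand. GAS letters were in 8.30% and ISRE letters in 3.44% of 32851 promoter windows of the same length. Of the members with a window, 2 held GAS letters (Ripk1 and Casp12) and 1 held ISRE letters (Ripk1). The windows of Ripk3, Mlkl, Casp1, Casp4, Casp8 and Pycard held neither, as did the window at the first Ripk1 start site. At the second of the Ripk1 start sites, GAS letters began 108 and 11 bases before the start, and ISRE letters began 5 bases before it and overlapped the nearer GAS run. The stretch from 120 bases before to 10 after that start (chr13:34002754-34002883, plus strand) is shown with the matched letters in capitals.
Ripk1: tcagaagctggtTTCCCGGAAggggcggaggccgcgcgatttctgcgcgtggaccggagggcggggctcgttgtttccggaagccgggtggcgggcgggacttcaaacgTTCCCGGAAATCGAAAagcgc
This stretch lies inside the Ripk1 gene as counted, which starts at 34002363. A match is a run of letters and no measurement of binding was made.

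Ripk3 (ENSMUSG00000022221, chromosome 14 from 55784996 to 55788857, minus strand), the kinase that phosphorylates MLKL, was present in 6694c2 and near 0 in B16F10 cells. With vehicle, 6694c2 libraries held 12.02, 10.6 and 11.2 CPM, from 579 reads in all. In B16F10 cells with vehicle it had 1 read in each library, or 0.0478, 0.0401 and 0.0391 CPM. The 6694c2 level was 268 times the B16F10 level, with a 95% counting interval of 91.2 to 1302 that covers counting error only. The other B16F10 groups held 11 reads with IFNγ, 10 with IFNβ and 14 with STING agonist over 3 libraries each. Against vehicle these were ratios of 3.67 (95% counting interval 0.970 to 20.5), 3.15 (0.811 to 17.8) and 5.68 (1.59 to 30.8), and none was called. As a share of the 6694c2 level under the same treatment, Ripk3 in B16F10 stood at 0.376% with vehicle, 1.08% with IFNγ, 1.02% with IFNβ and 2.04% with STING agonist. The 6694c2-specific transcripts stood at 0.228% to 1.03% of their mean over all 6694c2 libraries in the same groups, without the TMM adjustment. Their part in these few reads was not tested.

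Within 6694c2 cells, Ripk3 rose with IFNγ to 14.2, 15.1 and 14.8 CPM, with no overlap with vehicle (log2 fold change 0.40, SE 0.116, adjusted p = 0.0139, edgeR). The call was lost without vehicle replicate 2 (0.36, adjusted p = 0.0752, edgeR). With IFNβ it stood at 13.05, 11.7 and 14.4 CPM, overlapping vehicle (0.25, adjusted p = 0.142, edgeR), and with STING agonist at 12.2, 13.5 and 10.3 CPM (0.09, adjusted p = 0.889, edgeR).

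Mlkl (ENSMUSG00000012519, chromosome 8 from 111311797 to 111338177, minus strand), the membrane-breaching effector, was present in both lines before treatment and rose with both interferons. B16F10 libraries held 72.9, 72.6 and 73.6 CPM with vehicle, 253, 251 and 239 CPM with IFNγ, and 239, 223 and 251 CPM with IFNβ. 6694c2 libraries held 40.4, 40.7 and 41.9 CPM with vehicle, 166, 155 and 144 CPM with IFNγ, and 193, 185 and 197 CPM with IFNβ. Every interferon library lay above every vehicle library of its line, and B16F10 vehicle libraries lay above those of 6694c2. The log2 fold changes were 1.76 (SE 0.0581, adjusted p = 3.38e-104, edgeR) and 1.71 (SE 0.058, adjusted p = 1.01e-100, edgeR) in B16F10 cells with IFNγ and IFNβ. In 6694c2 cells they were 1.93 (SE 0.0726, adjusted p = 5.49e-25, edgeR) and 2.26 (SE 0.0727, adjusted p = 1.53e-27, edgeR). IFNβ gave a higher level than IFNγ in 6694c2 cells (log2 fold change 0.33, adjusted p = 0.000337, edgeR). In B16F10 cells the interferon groups overlapped, with a log2 difference of -0.05 (95% interval -0.16 to 0.06, adjusted p = 0.654, edgeR). That contrast differed between the lines by -0.37 (adjusted p = 0.0016, edgeR), and the IFNβ effect against vehicle was smaller in B16F10 cells by a log2 difference of -0.52 (SE 0.0855, adjusted p = 2.09e-05, edgeR).

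Casp8 (ENSMUSG00000026029, chromosome 1 from 58795374 to 58847503, plus strand), the caspase that restrains necroptosis, had group means from 64.3 to 93.6 CPM, the smallest range in ratio of the 10. B16F10 libraries held 64.7, 64.0 and 64.2 CPM with vehicle, 75.7, 71.6 and 71.6 CPM with IFNγ and 76.3, 70.1 and 79.8 CPM with IFNβ. The log2 fold changes were 0.18 with IFNγ (SE 0.0645, adjusted p = 0.0276, edgeR) and 0.24 with IFNβ (SE 0.0642, adjusted p = 0.00176, edgeR). The IFNγ call was lost without any 1 of the 3 vehicle libraries (log2 fold changes 0.18, 0.18 and 0.18, adjusted p = 0.0731, 0.0734 and 0.0738, edgeR) or IFNγ replicate 1 (0.16, adjusted p = 0.134, edgeR). 6694c2 libraries held 67.4, 80.2 and 81.3 CPM with vehicle and 98.1, 96.5 and 86.1 CPM with IFNγ, a log2 fold change of 0.31 (SE 0.0776, adjusted p = 0.00383, edgeR). With IFNβ it stood at 76.1, 73.2 and 85.4 CPM in that line, overlapping vehicle (0.07, adjusted p = 0.638, edgeR).

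**Figure D2:**
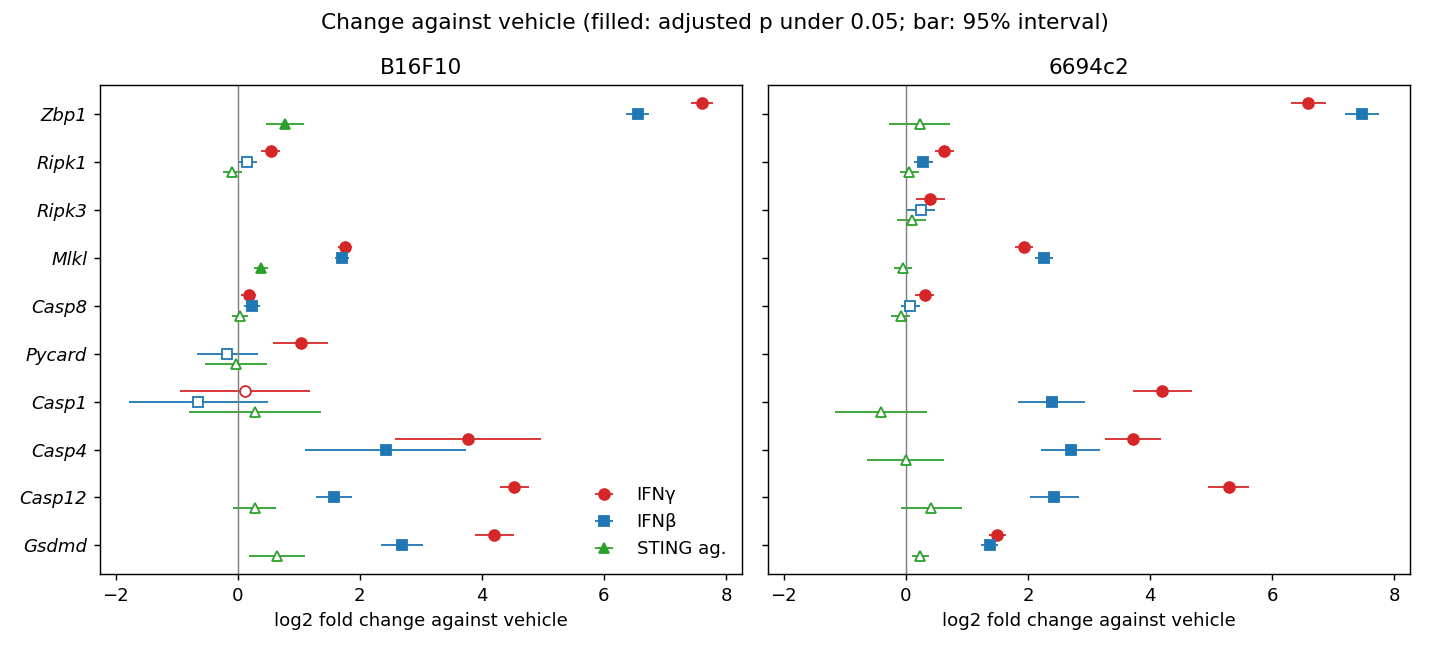
Log2 fold change of each gene against vehicle with its 95% interval in B16F10 and 6694c2 cells, with IFNγ as circles, IFNβ as squares and STING agonist as triangles, filled where the adjusted p was under 0.05. Genes with under 20 reads in both groups compared are left out. Zbp1 reaches 7.61 with IFNγ in B16F10 and 7.47 with IFNβ in 6694c2, and the STING agonist values lie under 1, with Zbp1 at 0.77 and Mlkl at 0.38 called in B16F10.

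Pycard (ENSMUSG00000030793, chromosome 7 from 127989708 to 127993867, minus strand), which encodes the inflammasome adaptor ASC, was low in both lines and lower in 6694c2. In B16F10 cells it stood at 1.77, 1.40 and 2.03 CPM with vehicle and 3.11, 3.94 and 3.65 CPM with IFNγ, with no overlap between the groups. The log2 fold change was 1.03 (SE 0.232, adjusted p = 0.000116, edgeR). With IFNβ it stood at 1.66, 1.34 and 1.62 CPM, overlapping vehicle (log2 fold change -0.17, adjusted p = 0.728, edgeR) and below IFNγ by a log2 fold change of -1.20 (SE 0.234, adjusted p = 1.01e-05, edgeR). In 6694c2 cells it had 8 reads with vehicle, 6 with IFNγ, 11 with IFNβ and 8 with STING agonist, each over 3 libraries, and no change was detectable at this depth. The ratios to vehicle were 0.606 with IFNγ (95% counting interval 0.173 to 1.99), 0.892 with IFNβ (0.327 to 2.56) and 0.631 with STING agonist (0.206 to 1.93). With vehicle, the log2 ratio of the 6694c2 to the B16F10 level was -3.43 (SE 0.464, adjusted p = 2.21e-08, edgeR). It was -2.84 without 6694c2 vehicle replicate 2, the library with no Pycard read (adjusted p = 1.25e-06, edgeR), and the ratio of reads gave 0.0895 (95% counting interval 0.0378 to 0.182). Pycard in 6694c2 cells with vehicle stood at 9.17% of the B16F10 level. The B16F10-specific transcripts stood at 0.576% in the same libraries, and their part in these few reads was not tested. Pycard shares 485 exon bases with the antisense gene Gm45205, which held 19 reads in all.

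Casp1, Casp4 and Casp12 lie next to each other on the plus strand of chromosome 9, within 74516 bases from 5298517 to 5373032, with no other counted gene between them. All 3 rose with both interferons in 6694c2 cells, and each was higher with IFNγ than with IFNβ. In B16F10 cells Casp12 and Casp4 rose and Casp1 was not called.

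Casp1 (ENSMUSG00000025888, 5298517 to 5307265), the caspase that matures IL-1β and IL-18, stood in 6694c2 cells at 0.700, 0.446 and 0.671 CPM with vehicle, 12.2, 12.1 and 9.05 CPM with IFNγ, and 3.39, 2.35 and 3.46 CPM with IFNβ. The 3 groups did not overlap. The log2 fold changes against vehicle were 4.20 with IFNγ (SE 0.239, adjusted p = 1.87e-18, edgeR) and 2.39 with IFNβ (SE 0.27, adjusted p = 2.45e-09, edgeR). In B16F10 cells it stood at 0.335, 0.521 and 0.391 CPM with vehicle, 0.660, 0.375 and 0.308 CPM with IFNγ, and 0.363, 0.268 and 0.162 CPM with IFNβ, and the groups overlapped. The log2 fold change with IFNγ was 0.11 in B16F10 cells (95% interval -0.95 to 1.18, adjusted p = 0.96, edgeR), and with IFNβ it was -0.64 (95% interval -1.78 to 0.49, adjusted p = 0.506, edgeR). The difference between the lines was -4.05 for the IFNγ effect (SE 0.507, adjusted p = 1.3e-07, edgeR) and -3.00 for the IFNβ effect (SE 0.531, adjusted p = 7.08e-05, edgeR). With vehicle the lines were not called different in Casp1 (0.52, 95% interval -0.29 to 1.32, adjusted p = 0.273, edgeR).

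Casp4 (ENSMUSG00000033538, 5308828 to 5336783), the lipopolysaccharide-binding caspase, stood in 6694c2 cells at 0.759, 1.23 and 0.427 CPM with vehicle, 12.6, 9.57 and 10.03 CPM with IFNγ, and 5.16, 4.48 and 5.93 CPM with IFNβ. The groups did not overlap, and the log2 fold changes were 3.72 with IFNγ (SE 0.225, adjusted p = 1.47e-17, edgeR) and 2.70 with IFNβ (SE 0.239, adjusted p = 2.72e-12, edgeR). In B16F10 cells it had 6 reads with vehicle, 89 with IFNγ, 36 with IFNβ and 4 with STING agonist over 3 libraries each. The IFNγ libraries stood at 1.61, 1.13 and 0.924 CPM and the vehicle libraries at 0.191, 0.0401 and 0.0391 CPM. The log2 fold change was 3.77 with IFNγ (SE 0.607, adjusted p = 2.39e-08, edgeR) and 2.42 with IFNβ (SE 0.669, adjusted p = 0.00223, edgeR), and without B16F10 vehicle replicate 1, which held 4 of the 6 vehicle reads, these became 4.77 and 3.43 (adjusted p = 4.11e-08 and 0.00082, edgeR). As a share of the 6694c2 level, Casp4 in B16F10 stood at 11.4% with IFNγ and 9.19% with IFNβ, against 0.331% and 0.428% for 6694c2-specific transcripts. The log2 fold change with IFNγ differed between the lines by 0.08 (95% interval -0.71 to 0.88, adjusted p = 1, edgeR). The sign of this difference turned when single libraries were left out (range over all alternatives -0.36 to 1.02).

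Casp12 (ENSMUSG00000025887, 5345430 to 5373032), an inflammatory caspase linked to endoplasmic reticulum stress, had the widest gap between IFNγ and IFNβ of the 10 in either line. B16F10 libraries held 2.44, 2.45 and 1.96 CPM with vehicle, 56.3, 49.7 and 52.2 CPM with IFNγ, and 7.95, 5.83 and 6.51 CPM with IFNβ. 6694c2 libraries held 0.642, 1.17 and 1.34 CPM with vehicle, 44.0, 38.5 and 40.0 CPM with IFNγ, and 5.16, 5.43 and 6.08 CPM with IFNβ. In both lines the IFNβ libraries lay between vehicle and IFNγ with no overlap. The log2 fold changes with IFNγ were 4.53 in B16F10 (SE 0.122, adjusted p = 3.82e-130, edgeR) and 5.29 in 6694c2 cells (SE 0.165, adjusted p = 5e-28, edgeR). With IFNβ they were 1.58 (SE 0.147, adjusted p = 3.79e-22, edgeR) and 2.43 (SE 0.198, adjusted p = 2.21e-13, edgeR). IFNγ gave 7.75 times the IFNβ level in B16F10 cells and 7.25 times in 6694c2 cells. This contrast was not called different between the lines (difference -0.09 on the log2 scale, 95% interval -0.42 to 0.24, adjusted p = 0.874, edgeR). The IFNβ effect against vehicle was called smaller in B16F10 cells (-0.83, adjusted p = 0.0404, edgeR), a call lost in the fits without B16F10 vehicle replicate 1 (-0.84, adjusted p = 0.0596, edgeR), B16F10 vehicle replicate 2 (-0.81, adjusted p = 0.0701, edgeR), B16F10 IFNβ replicate 2 (-0.79, adjusted p = 0.059, edgeR), 6694c2 vehicle replicate 1 (-0.57, adjusted p = 0.231, edgeR), 6694c2 vehicle replicate 2 (-0.92, adjusted p = 0.0525, edgeR), or 6694c2 IFNβ replicate 3 (-0.76, adjusted p = 0.0832, edgeR). The difference in the IFNγ effect, B16F10 minus 6694c2, was -0.74 and not called (adjusted p = 0.0666, edgeR). It was called without B16F10 vehicle replicate 3 (-0.89, adjusted p = 0.032, edgeR), B16F10 IFNγ replicate 1 (-0.83, adjusted p = 0.0419, edgeR) or 6694c2 vehicle replicate 3 (-0.94, adjusted p = 0.042, edgeR).

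The 120 bases before the Casp12 start (chr9:5345356-5345475, plus strand, RefSeq on GRCm38.p6) held the GAS letters at 102 and 36 bases before the start, with the same 9 letters in both runs, shown in capitals. This RefSeq start lies downstream of the start of the counted gene (5345430), so the nearer run lies inside the counted gene and the farther one before it. Casp12 was the member with GAS letters and no ISRE letters in its window, and the windows of its neighbours Casp1 and Casp4 held neither.
Casp12: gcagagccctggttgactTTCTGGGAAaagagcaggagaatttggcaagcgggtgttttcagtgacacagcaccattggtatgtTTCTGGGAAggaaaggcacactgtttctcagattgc

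Gsdmd (ENSMUSG00000022575, chromosome 15 from 75862339 to 75867404, plus strand), the pore-forming end point of pyroptosis, was abundant in 6694c2 cells and scarce in untreated B16F10 cells. In 6694c2 cells it stood at 55.1, 61.0 and 58.3 CPM with vehicle, 169, 157 and 162 CPM with IFNγ, and 147, 144 and 152 CPM with IFNβ. B16F10 libraries held 1.44, 1.04 and 1.13 CPM with vehicle, 20.9, 26.9 and 18.7 CPM with IFNγ, and 6.54, 7.74 and 8.77 CPM with IFNβ. No interferon library overlapped vehicle in either line, and no B16F10 library reached the lowest 6694c2 library. The log2 fold changes were 4.21 with IFNγ (SE 0.16, adjusted p = 7.47e-88, edgeR) and 2.69 with IFNβ (SE 0.176, adjusted p = 4.3e-40, edgeR) in B16F10 cells. In 6694c2 cells they were 1.497 (SE 0.0686, adjusted p = 7.78e-22, edgeR) and 1.38 (SE 0.0683, adjusted p = 1.3e-20, edgeR). The IFNγ effect was larger in B16F10 cells by 2.73 (SE 0.176, adjusted p = 3.37e-15, edgeR) and the IFNβ effect by 1.34 (SE 0.193, adjusted p = 2.44e-06, edgeR).

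The 2 interferons also differed for Gsdmd by line. In B16F10 cells IFNβ gave a lower level than IFNγ (log2 fold change -1.51, SE 0.119, adjusted p = 2.87e-29, edgeR), and in 6694c2 cells the difference was not called (-0.12, 95% interval -0.25 to 0.01, adjusted p = 0.262, edgeR). The test of this difference between the lines gave -1.38 (SE 0.127, adjusted p = 5.09e-11, edgeR). As a share of the 6694c2 level, Gsdmd in B16F10 cells stood at 2.07% with vehicle, 13.6% with IFNγ and 5.21% with IFNβ, against 0.228%, 0.331% and 0.428% for 6694c2-specific transcripts in the same groups.

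Set against each other directly, the interferons split the 10 genes differently in the 2 lines. In B16F10 cells 6 were called lower with IFNβ than with IFNγ and 0 higher (7.85% of all genes lower, 6.65% higher), namely Zbp1, Ripk1, Casp4, Gsdmd, Casp12 and Pycard, with 0 higher at an unadjusted p under 0.05 in edgeR and 0 in DESeq2. In 6694c2 cells 5 were lower (Ripk1, Casp1, Casp4, Casp8 and Casp12) and 2 higher (Zbp1 and Mlkl), where 6.57% of all genes were lower and 7.30% higher. The Casp4 call in B16F10 cells (log2 fold change -1.34, adjusted p = 0.0293, edgeR) was lost without replicate 1 (-1.09, adjusted p = 0.27, edgeR) or replicate 2 (-1.40, adjusted p = 0.0544, edgeR) of IFNγ or replicate 2 (-1.27, adjusted p = 0.102, edgeR) or replicate 3 (-1.19, adjusted p = 0.0976, edgeR) of IFNβ, and in DESeq2 (-1.36, adjusted p = 0.0644). The Casp8 call in 6694c2 cells (-0.24, adjusted p = 0.0302, edgeR) was lost without replicate 1 (-0.20, adjusted p = 0.126, edgeR) or replicate 2 (-0.23, adjusted p = 0.0748, edgeR) of IFNγ or replicate 1 (-0.21, adjusted p = 0.0951, edgeR) or replicate 2 (-0.20, adjusted p = 0.12, edgeR) of IFNβ. In the test of the difference between the lines, added after the within-line values were seen, 3 of the 10 genes had a lower IFNβ over IFNγ ratio in B16F10 cells (4.58% of all genes), Zbp1, Mlkl and Gsdmd, and 0 a higher one (3.87% of all genes). At an unadjusted p under 0.05 in edgeR 2 were higher, and 1 was called higher in DESeq2, which was Casp8 (0.30 in edgeR, adjusted p = 0.054). Casp8 was also called without B16F10 IFNβ replicate 2 (0.34, adjusted p = 0.0364, edgeR), 6694c2 IFNγ replicate 3 (0.36, adjusted p = 0.0222, edgeR) or 6694c2 IFNβ replicate 3 (0.37, adjusted p = 0.0164, edgeR). The medians of the 10 were -0.91 in B16F10 cells, -0.19 in 6694c2 cells and -0.21 for the difference, against 0, 0 and 0.003 over all genes. Members with few reads are included in these medians.

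**Figure D3:**
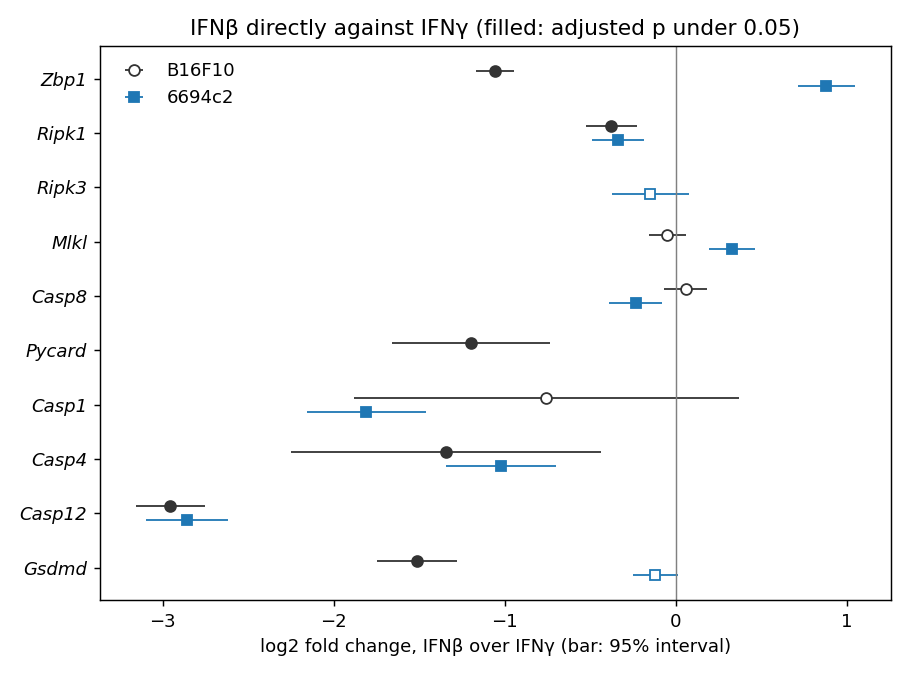
Log2 fold change of IFNβ over IFNγ for each gene with its 95% interval, in B16F10 (circles) and 6694c2 (squares) cells, filled where the adjusted p was under 0.05, with low-read genes left out. Casp12 lies near -2.9 in both lines, while Zbp1 lies at -1.06 in B16F10 and 0.88 in 6694c2.

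With STING agonist Mlkl and Zbp1 rose in B16F10 cells. Mlkl stood at 94.8, 95.7 and 95.9 CPM, above all vehicle libraries (log2 fold change 0.38, SE 0.0589, adjusted p = 6.84e-08, edgeR), and Zbp1 stood at 3.47, 3.29 and 3.45 CPM, also above all vehicle libraries (0.77, SE 0.157, adjusted p = 0.000134, edgeR). The Zbp1 call was lost without vehicle replicate 1, the lowest library (0.53, adjusted p = 0.0645, edgeR). The Zbp1 difference of 1.48 CPM equalled 0.383% of the level in B16F10 cells with IFNγ and 0.756% of the level in 6694c2 cells with IFNβ, but 132% and 112% of the levels in 6694c2 cells with vehicle and STING agonist. The 6694c2-specific transcripts stood at 1.03% in these libraries against 0.228% with vehicle, and their part in the Zbp1 value was not tested. The Mlkl difference of 22.4 CPM equalled 9.05% of the level in B16F10 cells with IFNγ and 11.7% of that in 6694c2 cells with IFNβ. It equalled 54.7% and 56.4% of the levels in 6694c2 cells with vehicle and STING agonist. The part of transcripts from other libraries in this difference was not tested. Gsdmd stood at 2.03, 1.86 and 1.75 CPM, above vehicle in every library but not called (0.64, adjusted p = 0.116, edgeR), and this difference of 0.678 CPM equalled 1.17% and 0.993% of the levels in 6694c2 cells with vehicle and STING agonist, 0.46% of that in 6694c2 cells with IFNβ and 3.06% of that in B16F10 cells with IFNγ, and the part of 6694c2 transcripts in it was not tested. The other genes with 20 reads or more were not called in B16F10 cells, with log2 fold changes of -0.09 for Ripk1, 0.29 for Casp1, 0.04 for Casp8, 0.28 for Casp12 and -0.02 for Pycard (adjusted p = 0.554 to 1, edgeR). The direction for Casp8 and Pycard turned when 1 library was left out, with ranges over all alternatives of -0.00343 to 0.0666 and -0.16 to 0.12. Casp4 had 4 reads against 6 with vehicle (ratio 0.811, 95% counting interval 0.168 to 3.42).

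In 6694c2 cells 0 of the 10 genes were called with STING agonist in edgeR, 1 had an unadjusted p under 0.05, and 1 was called in DESeq2. Both were Gsdmd, which stood at 67.8, 68.6 and 68.4 CPM, above every vehicle library (log2 fold change 0.23, adjusted p = 0.179 in edgeR and 0.0421 in DESeq2). Mlkl stood at 40.8, 40.9 and 37.6 CPM (-0.04, 95% interval -0.19 to 0.11, adjusted p = 0.953, edgeR) and Zbp1 at 1.54, 1.12 and 1.302 CPM (0.22, 95% interval -0.28 to 0.73, adjusted p = 0.887, edgeR), with a sign that turned without vehicle replicate 3. For Ripk1, Casp1, Casp4, Casp8 and Casp12 the log2 fold changes were 0.06, -0.40, -0.01, -0.08 and 0.42 (adjusted p = 0.733 to 1, edgeR), and the sign turned for Casp4 without vehicle replicate 2 (0.45) or STING agonist replicate 2 (0.01). The STING agonist effect was larger in B16F10 cells for 1 of the 10 genes, Mlkl, by 0.43 (SE 0.0885, adjusted p = 0.00243, edgeR), where 1.56% of all genes had a larger effect and 0.568% a smaller one. The median difference over the 10, members with few reads included, was 0.43 against 0.01 over all genes. None of the 10 had a smaller effect in B16F10 cells, with 0 at an unadjusted p under 0.05 in edgeR and 0 in DESeq2.

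Before treatment the lines differed in 9 of the 10 genes. Ripk1, Ripk3, Casp4, Casp8 and Gsdmd were higher in 6694c2 cells (5 genes, with 28.7% of all genes higher), and Zbp1, Mlkl, Casp12 and Pycard were lower (4 genes, with 29.3% of all genes lower). The median log2 fold change of the 10 was 0.36, against -0.01 over all genes. Gsdmd stood 48.6 times as high in 6694c2 (log2 fold change 5.603, SE 0.132, adjusted p = 2.89e-32, edgeR). Casp4 was higher by 3.19 (SE 0.562, adjusted p = 4.14e-06, edgeR), or by 4.14 without B16F10 vehicle replicate 1 (adjusted p = 3.7e-06, edgeR). Mlkl was lower, at -0.83 on the log2 scale (SE 0.0636, adjusted p = 5.09e-15, edgeR) and Casp12 by -1.11 (SE 0.238, adjusted p = 8.9e-05, edgeR). Ripk1 was higher by 0.48 (adjusted p = 1.23e-06, edgeR) and Casp8 by 0.25 (adjusted p = 0.00347, edgeR). The Zbp1 libraries overlapped between the lines (-0.80, adjusted p = 0.00773, edgeR), and that call was lost when replicate 3 of B16F10 vehicle was left out (-0.63, adjusted p = 0.0613, edgeR) and when replicate 3 of 6694c2 vehicle was (-0.49, adjusted p = 0.113, edgeR).

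For the response to IFNγ, 2 of the 10 genes had a larger effect in B16F10 cells (Zbp1 and Gsdmd, with 4.95% of all genes) and 1 a smaller one (Casp1, with 4.52% of all genes). For IFNβ, 1 had a larger effect in B16F10 cells (Gsdmd, with 5.90% of all genes) and 4 a smaller one (Zbp1, Mlkl, Casp1 and Casp12, with 6.16% of all genes). Ripk1 was not called different for either (differences of -0.07 and -0.10, 95% intervals -0.29 to 0.15 and -0.32 to 0.12, adjusted p = 0.817 and 0.657, edgeR). The median differences over the 10 were 0.01 for IFNγ and -0.17 for IFNβ, against 0.03 and 0.04 over all genes. Fitted values of members with few reads, Ripk3 in B16F10 and Pycard in 6694c2 cells, are included in these medians. Without B16F10 vehicle replicate 1 or 6694c2 vehicle replicate 1 the count of larger IFNγ effects was 1, and without B16F10 vehicle replicate 3, B16F10 IFNγ replicate 1 or 6694c2 vehicle replicate 3 the count of smaller ones was 2. Without replicate 2 of either vehicle group the count of smaller IFNβ effects was 2.

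Levels were also divided by exon length, taken as all annotated exon bases of a gene (3800 for Pycard and 6138 for Ripk1). Where the transcripts in use are shorter, the value is too low, so the order of genes is rough. The vehicle levels of B16F10 cells ran from Mlkl at 31.7 ± 0.227 CPM per kb and Casp8 at 22.2 ± 0.125 to Ripk1 at 4.87 ± 0.417 (SD, n = 3). Gsdmd, Casp12, Zbp1, Pycard and Casp1 followed between 0.678 and 0.278, with Casp4 and Ripk3 last at 0.0243 and 0.0216. In 6694c2 cells Gsdmd came first at 32.7 ± 1.65 CPM per kb, then Casp8 at 26.4 ± 2.66, Mlkl at 17.8 ± 0.334, Ripk1 at 6.77 ± 0.42 and Ripk3 at 5.73 ± 0.364 (SD, n = 3), and Pycard came last at 0.0419. With IFNγ in B16F10 cells, Zbp1 stood at 109.4 ± 1.63 and Mlkl at 107.6 ± 3.25 CPM per kb (SD, n = 3), with overlapping SD ranges. Ripk3 stood at 0.0809 in that group. In 6694c2 cells with IFNγ, Gsdmd stood at 91.5 ± 3.35, Mlkl at 67.3 ± 4.66 and Zbp1 at 30.6 ± 0.977 CPM per kb (SD, n = 3). With IFNβ in that line, Mlkl at 83.2 ± 2.63 and Gsdmd at 83.0 ± 2.12 CPM per kb lay within each other's spread (SD, n = 3), and Zbp1 stood at 55.4 ± 5.24. On this scale Zbp1, Ripk3 and Mlkl all stood above 6 CPM per kb in 6694c2 cells with either interferon, where Ripk3 was already at 5.73 with vehicle. In B16F10 cells Ripk3 stood at 0.0809 with IFNγ, 0.0679 with IFNβ and 0.125 with STING agonist.

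**Figure D4:**
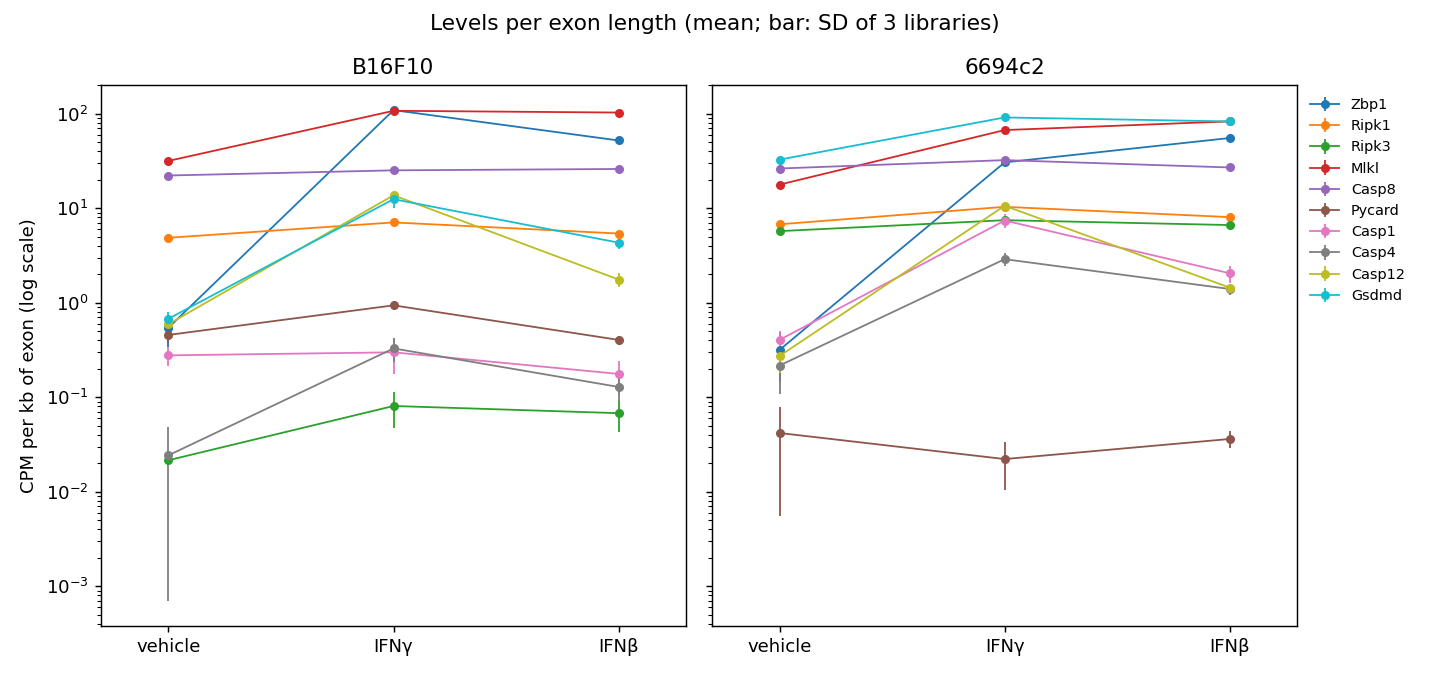
Mean CPM per kb of exon on a log scale, with the SD of 3 libraries, of the 10 genes with vehicle, IFNγ and IFNβ in B16F10 (left) and 6694c2 (right) cells. Zbp1 joins Mlkl near 109 CPM per kb with IFNγ in B16F10 cells, and the lowest line is Ripk3 in B16F10 cells under either interferon and Pycard in 6694c2 cells.

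Over the 24 libraries, the genes most like 4 of the members were named by Pearson correlation of log2(CPM + 1) among 11137 candidates, as a description across libraries that share lines and treatments. Zbp1 was most like H2-T22 and Nub1 (r = 0.992 and 0.990), Mlkl most like Trim21 and Cxcl10 (0.992 each), Casp4 most like Xdh and 2310001H17Rik (0.977 and 0.972), and Gsdmd most like Ccng2 and Nfix (0.992 and 0.985).

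Of 47 other genes of these pathways, 42 reached the minimum of reads. In B16F10 cells 14 were higher and 4 lower with IFNγ (12% and 10.8% of all genes), 10 higher and 4 lower with IFNβ (12.7% and 11.2%), and 3 higher and 1 lower with STING agonist (1.93% and 1.53%). In 6694c2 cells 10 were higher and 2 lower with IFNγ (7.89% and 5.66% of all genes), 9 higher and 7 lower with IFNβ (10.4% and 7.86%), and 0 either way with STING agonist (0.203% and 0.156%, edgeR). These lists were chosen with results of these data known. Of the 17 necroptosis regulators, 10 and 7 were higher in B16F10 cells with IFNγ and IFNβ (12% and 12.7% of all genes) and 8 and 7 in 6694c2 cells (7.89% and 10.4%), and 0 were lower in edgeR. Tlr3, a receptor for double-stranded RNA, rose with IFNβ from 5.24 ± 0.525 to 118.3 ± 6.94 CPM in 6694c2 cells (log2 fold change 4.53, adjusted p = 1.01e-32, edgeR) and from 20.2 ± 2.31 to 167 ± 18.9 CPM in B16F10 cells (3.05, adjusted p = 1.95e-150, edgeR). Adar, whose editing of double-stranded RNA limits ZBP1 activation, rose with IFNβ by 2.20 in 6694c2 cells (adjusted p = 1.72e-26, edgeR) and 1.47 in B16F10 cells (adjusted p = 2.51e-83, edgeR). Rnf31, a subunit of the linear ubiquitin ligase, rose by 1.49 with IFNγ in B16F10 cells (adjusted p = 2.63e-52, edgeR), Tnfrsf1a, the TNF receptor, by 1.55 with IFNγ in 6694c2 cells (adjusted p = 5.04e-23, edgeR), and Cflar, which encodes the CASP8 regulator FLIP, by 0.93 with IFNβ in B16F10 cells (adjusted p = 3.3e-35, edgeR).

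Of the 12 inflammasome sensors and regulators 11 were tested, and Naip2, a sensor of bacterial secretion proteins, was the gene called higher with either interferon in both lines. Its log2 fold changes were 1.012 and 1.007 in B16F10 cells with IFNγ and IFNβ (adjusted p = 2.98e-09 and 3.43e-09, edgeR), and 0.65 and 0.85 in 6694c2 cells (adjusted p = 7.7e-07 and 7.95e-10, edgeR). Dpp9, an inhibitor of the NLRP1 sensor, was lower in B16F10 cells with IFNγ (-0.21, adjusted p = 0.00598, edgeR) and IFNβ (-0.23, adjusted p = 0.00266, edgeR), and Nek7 and Nlrc4 were lower in 6694c2 cells with IFNβ (-0.32 and -0.53, adjusted p = 0.000291 and 0.0254, edgeR). Among 6 tested genes of the other gasdermin and membrane rupture list, Gsdmc was lower in B16F10 cells with IFNγ (-0.64, adjusted p = 1.59e-15, edgeR) and Gsdme in 6694c2 cells with IFNγ (-0.60, adjusted p = 2.57e-08, edgeR), while Ninj1, which drives plasma membrane rupture, was higher in B16F10 cells with IFNγ (0.19, adjusted p = 0.00891, edgeR). Gsdmc with IFNβ (-0.52, adjusted p = 8.66e-11, edgeR) and with STING agonist (-0.25, adjusted p = 0.0298, edgeR) was also lower in B16F10 cells, and Gsdme with IFNβ in 6694c2 cells (-0.33, adjusted p = 0.000679, edgeR). Il18, a cytokine that CASP1 matures, rose in B16F10 cells from 2.09 ± 0.431 to 7.37 ± 0.57 CPM with IFNγ (log2 fold change 1.80, SE 0.171, adjusted p = 2.28e-21, edgeR). Hmgb1, a nuclear protein released as an alarmin, was lower in B16F10 cells with IFNγ (-0.27, adjusted p = 3.29e-06, edgeR) and IFNβ (-0.43, adjusted p = 4.27e-14, edgeR). In 6694c2 cells with IFNβ, Hmgb1 (-0.37, adjusted p = 0.000136, edgeR) and the alarmin Il33 (-0.62, adjusted p = 6.75e-09, edgeR) were lower. Of the 4 tested genes of the cytokine and alarmin list, 1 was thus higher and 1 lower in B16F10 cells with either interferon, and in 6694c2 cells 0 were called with IFNγ and 2 were lower with IFNβ.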

How the data were processed

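The deposited values for the 24 bulk libraries are raw read counts, which the authors made by adaptor trimming (cutadapt), alignment (STAR) and counting over genes (Rsubread) of paired-end reads. Annotation version, strand setting and treatment of multi-mapping reads are not given in the sources used here. Coordinates are those of the deposited files. The labels list mm10, and 91.4% of the gene IDs shared with GENCODE M21 (GRCm38) had the same coordinates. The 6 single-cell samples were not analysed here. Counts were analysed in R 4.3.3 with edgeR 4.0.16 (limma 3.58.1) after TMM normalization, over genes with at least 10 reads in all. Comparisons within a line used its 12 libraries and comparisons between lines all 24. The study's tool, DESeq2 (1.42.0), was an alternative, beside a replicate block, a robust fit, other size factors (RLE), other minimums of reads (filterByExpr or none), only the groups compared, and leaving out each library. Standard errors are the fold change over the square root of F. No fold change is given where both groups had under 20 reads, a limit chosen after seeing the data. The members and lists were chosen with earlier results of these data known, and the test of IFNβ over IFNγ between the lines was added after seeing the data. All 10 members were named, and from each pathway list at most the 3 genes with the smallest p per comparison with vehicle. The fit was also run on counts simulated from its own estimates, with known changes set only in genes above a minimum mean count. The outcome of that run is not given here, and no result above rests on it. Counting intervals are exact binomial at 95% and cover counting error only. Results for some listed genes are not reported here.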

Additional observations from a re-analysis of the deposited data

Results flagged for a closer look

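Some members responded differently in B16F10 and 6694c2 cells, by the test of the difference itself, and those differences are given as B16F10 minus 6694c2 on the log2 scale from edgeR. For the IFNγ effect they were 1.04 for Zbp1, -4.05 for Casp1 and 2.73 for Gsdmd. For the IFNβ effect they were -0.89 for Zbp1, -0.52 for Mlkl, -3.00 for Casp1, 1.34 for Gsdmd and -0.83 for Casp12. For the STING agonist effect the difference was 0.43 for Mlkl. For IFNβ over IFNγ they were -1.93 for Zbp1, -0.37 for Mlkl and -1.38 for Gsdmd. The tests of the IFNγ and IFNβ effects share vehicle libraries. For Zbp1 and Casp12 the effects against vehicle lost or gained their call without single libraries, as given above. Groups of 3 libraries are too small for a test of single outlying samples.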

How the results depend on the processing

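Of 112 fold changes given for the members, 66 were called, and none of these 66 changed direction under any alternative. A call was lost under at least 1 alternative for 11 and gained for 3. In DESeq2, 1 member was called higher with STING agonist in 6694c2 cells. The count of members with a smaller IFNγ effect in B16F10 cells was 2 with the replicate block, in DESeq2 and with only the groups compared. The count with a smaller IFNβ effect was 2 with only the groups compared. For IFNβ over IFNγ between the lines, 1 member (Casp8) was called higher in DESeq2, in the robust fit, with RLE size factors, and with the filterByExpr minimum or none. With 1 library left out, the members called higher ranged from 1 to 2 for STING agonist in B16F10 cells, from 1 to 2 for the larger IFNγ effect in B16F10 cells, and from 0 to 1 for the larger IFNβ over IFNγ ratio. Those called lower ranged from 1 to 2 for the IFNγ effect and from 2 to 4 for the IFNβ effect. Directions that turned belonged to uncalled values. Their ranges over all alternatives were -0.28 to 0.32 for Casp1 with IFNγ in B16F10 cells, -0.00343 to 0.0666 for Casp8 and -0.16 to 0.12 for Pycard with STING agonist in B16F10 cells, -0.0102 to 0.12 for Casp8 with IFNβ, and -0.0833 to 0.69 for Zbp1 and -0.29 to 0.45 for Casp4 with STING agonist in 6694c2 cells. Between the lines they were -0.36 to 1.02 for Casp4 with IFNγ, -0.69 to 0.70 for Casp4 with IFNβ, -0.33 to 0.13 for Casp12 with STING agonist, and -0.067 to 0.00392 for Ripk1 and -0.22 to 0.00373 for Casp12 for IFNβ over IFNγ. The cause was not tested.

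Replicate numbers were shared between groups, but same-numbered libraries did not deviate together (36 pairs, r = -0.20 to 0.18, of which 3 were over 0.1), so the numbers were not taken as pairs. With the replicate block the members called higher with IFNγ were 8 in B16F10 and 9 in 6694c2 cells, as without it, and 4 members in place of 5 were higher in 6694c2 than in B16F10 cells with vehicle, the change being Casp8 (log2 fold change 0.19, adjusted p = 0.0903, edgeR). The count over all genes called higher with STING agonist in 6694c2 cells was 43, against 22 with the filterByExpr minimum, 97 without a filter, 82 with the replicate block, 83 with only the groups compared and 16 to 67 with 1 library left out (STING agonist replicate 1 and vehicle replicate 1), and the lower count was 33 against 58 without a filter. In B16F10 cells it was 408 higher and 324 lower, against 643 and 628 with only the groups compared, 205 lower with the filterByExpr minimum, 270 higher without vehicle replicate 1 and 127 lower without STING agonist replicate 3. For the STING agonist effect between the lines it was 329 larger and 120 smaller, against 500 and 243 in DESeq2, 213 smaller without a filter, 334 smaller with only the groups compared and 51 smaller without 6694c2 STING agonist replicate 1. The larger IFNγ and IFNβ effects in B16F10 cells numbered 1046 and 1248, and 648 and 779 without B16F10 vehicle replicate 1. Without B16F10 IFNγ replicate 2 the first was 690, and without B16F10 IFNβ replicate 1 the second was 816. Depth limits Ripk3 and Casp4 in B16F10 cells and Pycard in 6694c2 cells, where a few reads set each value.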
